A study of Mus musculus with 18 samples.

Results

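The insulin-like growth factor (IGF) genes measured here were 10 of the 22238 gene symbols of a count table from mouse uterus: the ligands Igf1 and Igf2, the receptors Igf1r and Igf2r, and the binding protein genes Igfbp2, Igfbp3, Igfbp4, Igfbp5, Igfbp6 and Igfbp7. They were taken by symbol, and all 10 passed the filter on low counts. RNA came from whole uterus of adult CD-1 mice, an outbred stock, whose ovaries had been removed, a state that all groups share. The groups were doxorubicin with estradiol (DOX E2), saline with estradiol (PBS E2), doxorubicin with progesterone (DOX P4), saline with progesterone (PBS P4), doxorubicin with oil (DOX OIL) and saline with oil (PBS OIL), with 3 libraries each. Doxorubicin is an anthracycline used in chemotherapy, and the series asks how it alters the uterine answer to estrogen. The labels state no dose, time or exact age, and do not say that the libraries are separate animals. The p-values therefore reflect only how far these samples scatter, which may be technical. Libraries held 18042357 to 39783785 counts, and the highest total belonged to PBS E2 replicate 1. All 10 genes of a uterus marker list had counts in every group. Of 10 oviduct and ciliated cell genes, 9 had counts in DOX P4 and 10 in each other group. The presence of counts alone thus does not check the tissue.

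IGF1 and IGF2 are secreted growth factors that act through IGF1R, a receptor tyrosine kinase that feeds the PI3K and AKT kinases. IGF2R, which is also the mannose 6-phosphate receptor, takes up IGF2 and carries it to lysosomes, and the secreted binding proteins hold the ligands, lengthen their life and limit or aid their access to the receptor. In the rodent uterus, IGF1 made in the stroma is known as a mediator of the growth of the epithelium under estradiol.

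On build GRCm38 with the GENCODE M21 annotation, Igf1 spans chr10:87858265-87937042 on the plus strand, Igf1r chr7:67952827-68233668 on the plus strand and Igf2r chr17:12682406-12769664 on the minus strand. Igfbp2 (chr1:72824503-72852474, plus) and Igfbp5 (chr1:72857932-72874884, minus) are neighbours that face each other with their 3′ ends. Igfbp3 (chr11:7206086-7213923, minus), Igfbp4 (chr11:99041244-99054392, plus), Igfbp6 (chr15:102144362-102149511, plus) and Igfbp7 (chr5:77349240-77408041, minus) lie apart from the other members.

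Per kilobase of exon, 5 of the 6 binding proteins, all but Igfbp2, stood above both ligands and both receptors in the uterus without hormone. Levels are in CPM, counts scaled to a common library size with the TMM factors of edgeR, and per kilobase they are divided by the length of the joined exons. In PBS OIL uteri, Igfbp7 stood at 382 ± 38.3 CPM per kilobase (SD, n = 3) and Igfbp6 at 360.4 ± 19.1. Igfbp3 followed at 162 ± 43.0, Igfbp4 at 119 ± 10.7 and Igfbp5 at 63.1 ± 22.9. Igf2r, at 28.9 ± 3.36 CPM per kilobase, was the higher of the receptors, against 4.26 ± 0.877 for Igf1r. The ligands were near each other, with Igf1 at 7.31 ± 2.02 and Igf2 at 5.06 ± 0.356, and Igfbp2 had the lowest level at 2.62 ± 1.58. The 5 binding proteins did not all stand above the ligands in DOX E2 uteri, where Igf1 reached 93.7 ± 10.7 CPM per kilobase. Igf1 there exceeded Igfbp3 at 70.9, Igfbp4 at 74.1 and Igfbp5 at 40.5. In PBS E2 uteri Igf1 reached 54.1 ± 12.4, below all 5, the lowest being Igfbp5 at 75.7 ± 9.20. With the longest transcript as length, Igf1 in PBS E2 uteri was 75.9 ± 17.4, against 75.7 for Igfbp5. With that length, 5 of the PBS OIL levels moved by more than 1 SD, and the closing section gives them.

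**Figure D1:**
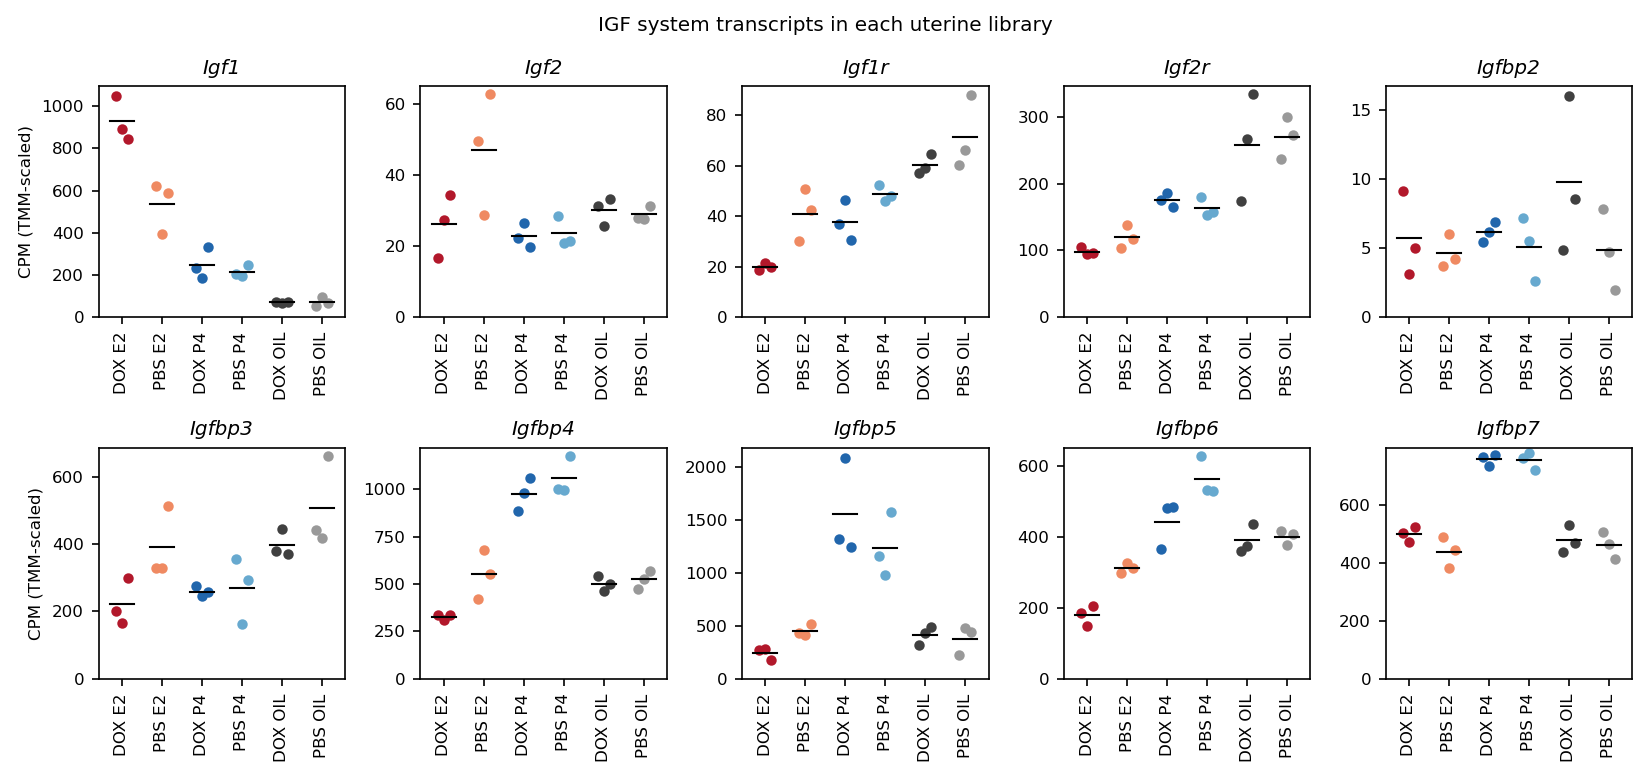
Level of each of the 10 genes (TMM-scaled CPM, a linear axis from 0 of its own in each panel) in each library, by group, with 3 points and a black line at the mean per group. The Igf1 points run from 54.2 CPM in a PBS OIL library to 1047 CPM in a DOX E2 library, while the Igfbp2 points of all groups lie between 2.004 and 16.0 CPM.

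The sequence before the transcription start is shown for Igf1, whose level moved most, and for Igf1r and Igf2r, whose profiles over the 18 libraries were the nearest of any pair of members (root mean square difference of centred log2 CPM 0.323). Each window holds 250 bases upstream of a start in RefSeq on build GRCm38.p6, read 5′ to 3′ on the strand of the gene. These starts can differ from the GENCODE gene starts given above. The Igf1 window lies inside the Igf1 span, and the Igf1r window ends at 67952256, ahead of the GENCODE start at 67952827. Capitals mark the half-site of the estrogen response element, AGGTCA on either strand, which therefore reads TGACCT where it lies on the opposite strand.
Igf1, chr10:87860861-87861110, plus strand: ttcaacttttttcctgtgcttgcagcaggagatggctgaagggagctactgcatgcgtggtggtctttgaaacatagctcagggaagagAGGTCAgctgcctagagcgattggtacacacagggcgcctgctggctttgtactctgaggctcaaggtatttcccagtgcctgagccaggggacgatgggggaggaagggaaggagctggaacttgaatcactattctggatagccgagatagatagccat
Igf1r, chr7:67952007-67952256, plus strand: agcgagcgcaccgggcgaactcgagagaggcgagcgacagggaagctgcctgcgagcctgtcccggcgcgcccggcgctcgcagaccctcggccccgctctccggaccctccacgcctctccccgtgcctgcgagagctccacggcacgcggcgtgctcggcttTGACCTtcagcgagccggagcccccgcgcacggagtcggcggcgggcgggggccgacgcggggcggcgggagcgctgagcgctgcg
Igf2r, chr17:12769707-12769956, minus strand: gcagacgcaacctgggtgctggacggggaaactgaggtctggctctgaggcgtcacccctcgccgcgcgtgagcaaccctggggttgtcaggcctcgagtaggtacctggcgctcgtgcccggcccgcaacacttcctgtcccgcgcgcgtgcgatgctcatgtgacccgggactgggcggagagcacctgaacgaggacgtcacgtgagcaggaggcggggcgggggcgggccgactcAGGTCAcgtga
The half-site began 161 bases before the RefSeq start used for Igf1, 86 before that for Igf1r and 11 before that for Igf2r. Over the 10 genes there were 14 windows, since Igf2 had 4 starts and Igfbp2 had 2, and the half-site was in 4 of them, the fourth being an Igf2 window. Of all 32851 windows in the table, 4607, or 14.0%, held it. The full element, GGTCANNNTGACC, was in 0 of the 14 windows and in 21 of all windows (0.064%). The palindromic element of the progesterone and glucocorticoid receptors, GNACANNNTGTNC, was also in 0 of the 14, against 0.387% of all windows. The half-site shares the letters GGTCA with the full element, so the motifs can overlap. These matches describe letters in a short window only.

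Under E2, Igf1 and most other members moved in opposite directions with doxorubicin. Igf1 rose in DOX E2 uteri relative to PBS E2 uteri, and Igf2, Igf1r, Igfbp3, Igfbp4, Igfbp5 and Igfbp6 fell. Igf2r, Igfbp2 and Igfbp7 did not pass the test. Calls are by the quasi-likelihood test of edgeR on all 15494 tested genes, with Benjamini-Hochberg adjustment and a threshold of 0.05. In this comparison 1 member was higher, where 20.4% of all tested genes were higher, and 6 were lower, where 20.6% of all tested genes were lower. The median log2 fold change of the 10 genes was -0.77, against 0.02 over all tested genes.

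Adipocyte marker levels moved with this comparison, and 18 of 21 markers fell in DOX E2 relative to PBS E2 uteri. The summed level of the 21, all of them with counts in every group, was 976, 896 and 1327 CPM in the DOX E2 libraries, against 10175, 1331 and 2856 CPM in the PBS E2 libraries. Fasn, a marker called higher with E2 in both arms, held 621, 531 and 591 CPM of the DOX E2 sums. Those sums thus do not follow adipocyte content alone. Adipoq, among the 18 that fell, stood at 0, 0.103 and 12.6 CPM in DOX E2 libraries, against 268, 16.0 and 58.7 CPM in PBS E2 libraries. With the mean log2 level of the 21 adipocyte markers as a covariate, 3 members remained called in place of 7, namely Igf1r, Igfbp4 and Igfbp6. Over all 15494 tested genes the covariate left 4043 called in place of 6358, so the loss of calls was not particular to the members. Without PBS E2 replicate 1, the library richest in adipocyte markers, 8 members and 6818 of all tested genes were called. The summed level of 15 stromal fibroblast markers also lay lower in DOX E2 uteri, at 4294 to 5599 CPM, than in PBS E2 uteri, at 6180 to 8416 CPM, and 5 of the 15 fell while 1 rose. The summed level of 15 smooth muscle markers was 10254 to 12378 CPM in DOX E2 uteri, against 12734 to 13370 CPM in PBS E2 uteri. Of these, 3 fell and 0 rose. Over all tested genes 20.6% were lower and 20.4% higher, so the smooth muscle count of falls lies near the background. The part of these marker lists in the falls was not tested beyond these values. In bulk tissue, fewer cells of a type and less RNA per cell cannot be told apart.

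Both ligands and both receptors were called with E2 in the saline arm, but the Igf2 call depended on single libraries. Igf1 and Igf2 rose in PBS E2 uteri relative to PBS OIL uteri, and Igf1r, Igf2r and Igfbp6 fell. Thus 2 members were higher against a background of 29.6% of all tested genes, and 3 were lower against 31.9%. These counts lie near the background and are no result about the members as a set. In the doxorubicin arm Igf1 rose in DOX E2 uteri relative to DOX OIL uteri, and Igf1r, Igf2r, Igfbp3, Igfbp4, Igfbp5 and Igfbp6 fell. That is 1 member higher against 35.1% of all tested genes, and 6 lower against 37.5%. Stromal fibroblast markers moved with E2 in the DOX arm. In the DOX arm 11 of 15 fell and 1 rose, with a sum of 4294 to 5599 CPM in DOX E2 uteri, against 7570.2 to 9292 CPM in DOX OIL uteri. In the PBS arm 5 of 15 fell and 1 rose, which is near or under the background of 31.9% lower and 29.6% higher. Their sums overlapped, at 6180 to 8416 CPM in PBS E2 uteri and 5752 to 9926 CPM in PBS OIL uteri. The part of these markers in the member changes was not tested. The comparison of DOX E2 with PBS E2 uteri shares its libraries with both E2 comparisons.

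P4 changed Igf1, both receptors and several binding proteins in both arms. In PBS P4 uteri relative to PBS OIL uteri, Igf1, Igfbp4, Igfbp5, Igfbp6 and Igfbp7 rose, which is 5 higher against a background of 16.2%, and Igf1r, Igf2r and Igfbp3 fell, which is 3 lower against 15.6%. In DOX P4 uteri relative to DOX OIL uteri, 4 were higher (Igf1, Igfbp4, Igfbp5 and Igfbp7) against 14.7%, and 2 were lower (Igf1r and Igf2r) against 15.1%. Smooth muscle markers moved with P4, and 9 of 15 rose in either arm. Their summed level was 18796 to 32902 CPM in DOX P4 uteri and 17316 to 22871 CPM in PBS P4 uteri, against 8358 to 18294 CPM in DOX OIL uteri and 9246 to 11025 CPM in PBS OIL uteri. Stromal fibroblast markers moved as well, with 9 of 15 higher in the DOX arm and 5 higher and 1 lower in the PBS arm. Their summed level was 10340.4 to 13459 CPM in DOX P4 uteri and 9106 to 11075 CPM in PBS P4 uteri, against 7570.2 to 9292 CPM in DOX OIL uteri and 5752 to 9926 CPM in PBS OIL uteri. Of the 21 adipocyte markers, 9 fell with P4 in the PBS arm, where their sum was 744 to 1136 CPM in PBS P4 uteri, against 1474 to 5208 CPM in PBS OIL uteri. In the DOX arm 1 rose, and their sum was 757 to 1158 CPM in DOX P4 uteri, against 873 to 1793 CPM in DOX OIL uteri. The part of these markers in the member changes was not tested.

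**Figure D2:**
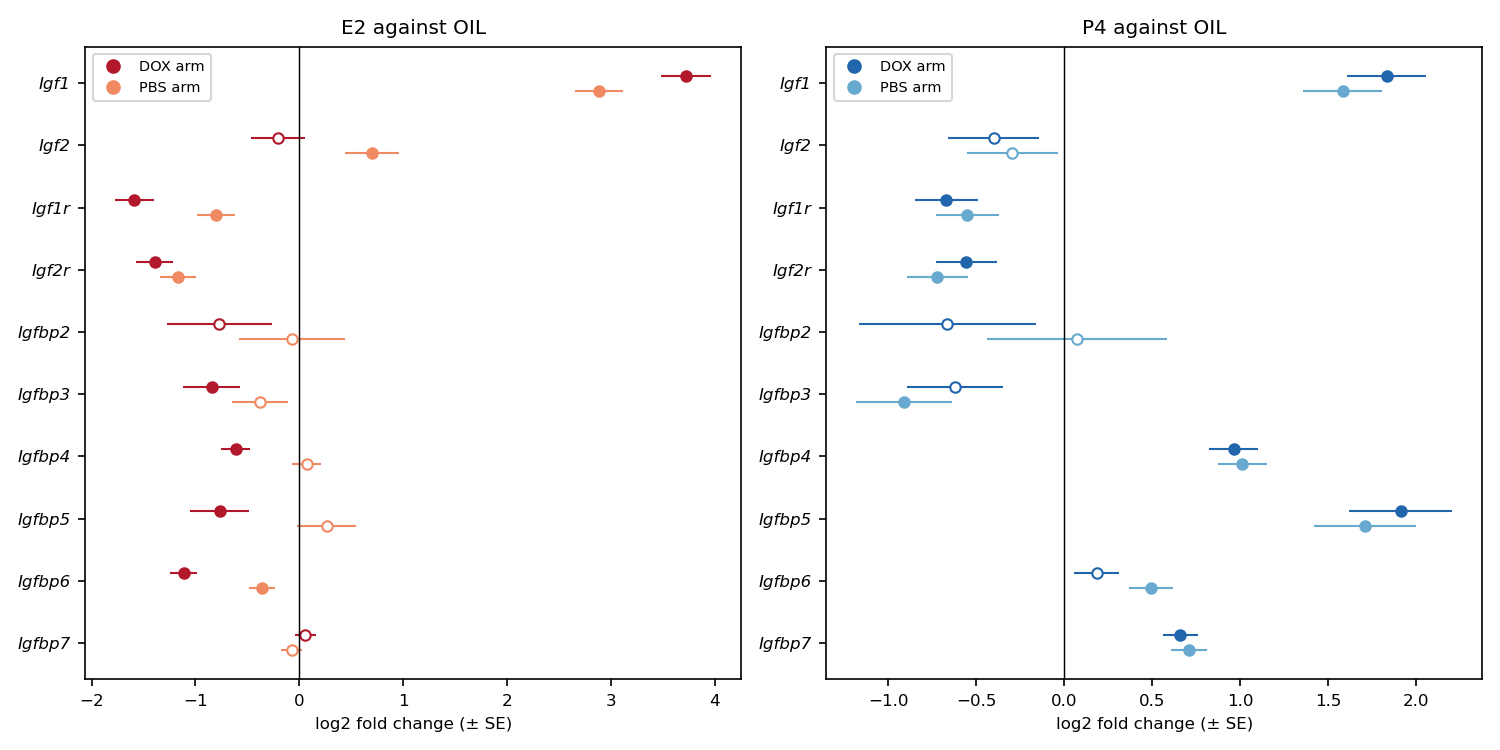
Log2 fold change of each member for E2 minus OIL and P4 minus OIL, in the DOX arm and in the PBS arm, with bars of ± 1 SE. Filled points passed the test at an adjusted p of 0.05 and open points did not; Igf1 stands above 0 in all 4 comparisons, by 3.73 in DOX E2 and 2.89 in PBS E2 uteri, and Igf1r and Igf2r stand below 0 in all 4.

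Igf1, the ligand of IGF1R that the uterus makes under estradiol, had the widest range of the members. It was measured at 1047, 893 and 844 CPM in DOX E2 uteri, against 621, 395 and 590.1 CPM in PBS E2 uteri. In P4 uteri it stood at 234, 184 and 331 CPM with DOX, against 206, 198 and 247 CPM with PBS. In OIL uteri it stood at 71.2, 68.8 and 70.4 CPM with DOX, against 54.2, 93.9 and 69.1 CPM with PBS. All DOX E2 libraries lay above all PBS E2 libraries, these lay above all P4 libraries and these above all OIL libraries, while DOX and PBS overlapped within P4 and within OIL. The rise under E2 was 3.73 ± 0.24 on the log2 scale in the DOX arm (SE, 13.2-fold, adjusted p = 2.28e-09), and 2.89 ± 0.23 in the PBS arm (7.39-fold, adjusted p = 6.21e-08). The rise under P4 was 1.83 ± 0.23 in the DOX arm (adjusted p = 6.61e-05) and 1.58 ± 0.22 in the PBS arm (adjusted p = 0.000182). Both hormones thus raised Igf1 in both arms. DOX E2 uteri exceeded PBS E2 uteri by 0.79 ± 0.22 (1.73-fold, adjusted p = 0.00919), and this call ended with the adipocyte covariate, at 0.87 ± 0.34 and an adjusted p of 0.073. Whether the E2 response itself differed between the arms was a separate test, and the interaction of 0.84 ± 0.31 did not pass (adjusted p = 0.0614). It passed with the Wald test of DESeq2 (0.83, adjusted p = 0.0338) and without PBS E2 replicate 1 (0.96) or PBS OIL replicate 1 (0.99).

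Igf2, the fetal growth factor and ligand of both receptors, moved less and with more scatter. Its level was 16.6, 27.3 and 34.3 CPM in DOX E2 uteri, against 49.6, 28.8 and 62.7 CPM in PBS E2 uteri. The other groups lay between 19.6 and 33.2 CPM. The DOX E2 and PBS E2 libraries overlapped. DOX E2 minus PBS E2 was -0.85 ± 0.26 on the log2 scale (adjusted p = 0.0162). The call ended without DOX E2 replicate 1 (-0.63), without PBS E2 replicate 3 (-0.59), in a fit of the compared groups alone (-0.88) and with the adipocyte covariate (-0.26). Leaving out a single library thus ended the Igf2 call, and this also held for E2 in the PBS arm. The rise in PBS E2 relative to PBS OIL uteri was 0.70 ± 0.26 (adjusted p = 0.0269), and that call ended without PBS E2 replicate 1 (0.66), PBS E2 replicate 3 (0.44), PBS OIL replicate 1 (0.68) or PBS OIL replicate 2 (0.67). In DOX E2 relative to DOX OIL uteri the value was -0.20 ± 0.26 (adjusted p = 0.491). The difference between the arms, an interaction of -0.90 ± 0.37, did not pass (adjusted p = 0.0838), although it did without DOX E2 replicate 3 (-1.17, adjusted p = 0.0351) or PBS E2 replicate 2 (-1.16, adjusted p = 0.023). P4 gave -0.40 ± 0.26 in the DOX arm (adjusted p = 0.261) and -0.29 ± 0.26 in the PBS arm (adjusted p = 0.405). Igf2 lies on chromosome 7 at 142650766 to 142666816 on the minus strand, and 62.8% of its exon bases are shared with Gm49394 on the same strand, so its count is uncertain.

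Igf1r, the receptor that transmits the IGF signal, was lowest in the DOX E2 group. Its level was 18.9, 21.5 and 19.8 CPM in DOX E2 uteri, against 30.2, 50.7 and 42.4 CPM in PBS E2 uteri. In P4 uteri it was 36.8, 46.3 and 30.7 CPM with DOX, against 52.5, 46.0 and 48.1 CPM with PBS, and in OIL uteri 57.2, 59.3 and 64.5 CPM with DOX, against 60.1, 66.3 and 88.1 CPM with PBS. No DOX E2 library reached any library of another group. The fold change of DOX E2 over PBS E2 was -1.03 ± 0.18 on the log2 scale (adjusted p = 0.000513), and it passed in every alternative run. The log2 fold change under E2 was -1.59 ± 0.19 in the DOX arm (adjusted p = 1.2e-06) and -0.80 ± 0.18 in the PBS arm (adjusted p = 0.00114). The difference of these responses was -0.79 ± 0.26 (adjusted p = 0.0374). Leaving out 1 of the 12 libraries in turn gave -0.97 to -0.61, and the call held only without DOX OIL replicate 1, PBS E2 replicate 1 or PBS OIL replicate 3. It was also lost in a fit of the compared groups alone (-0.80, adjusted p = 0.0557). Igf1r was also lower with P4 than with OIL in both arms. P4 gave -0.67 ± 0.18 in the DOX arm (adjusted p = 0.0112) and -0.55 ± 0.18 in the PBS arm (adjusted p = 0.0289). The DOX arm call ended without DOX P4 replicate 3 (-0.54). The PBS arm call ended without PBS OIL replicate 3 (-0.37), PBS P4 replicate 2 (-0.51) or PBS P4 replicate 3 (-0.54), and with the adipocyte covariate (-0.64).

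Igf2r, the clearance receptor of IGF2, fell with either hormone, and no DOX comparison of it passed. It was measured at 105, 94.1 and 96.2 CPM in DOX E2 uteri, against 104, 138 and 118 CPM in PBS E2 uteri, and these libraries overlapped. P4 uteri held 175, 186 and 165 CPM with DOX, against 180.4, 152 and 158 CPM with PBS. OIL uteri held 174, 267 and 334 CPM with DOX, against 237, 299 and 272 CPM with PBS. Every E2 library lay below every P4 library and every OIL library. The log2 fold change under E2 was -1.39 ± 0.18 in the DOX arm (adjusted p = 2.98e-06) and -1.17 ± 0.18 in the PBS arm (adjusted p = 3.05e-05). P4 gave -0.56 ± 0.17 in the DOX arm (adjusted p = 0.0245), where the libraries overlapped, and -0.72 ± 0.17 in the PBS arm (adjusted p = 0.00602). The DOX arm call of P4 ended without DOX OIL replicate 2 (-0.53), DOX OIL replicate 3 (-0.33), DOX P4 replicate 1 (-0.55) or DOX P4 replicate 3 (-0.52), and in a fit of the compared groups alone (-0.55). The DOX comparison within E2 did not pass for this receptor. DOX E2 minus PBS E2 was -0.28 ± 0.17 (adjusted p = 0.207), and the interaction was -0.22 ± 0.25 (adjusted p = 0.54). Per kilobase, Igf1r made up 0.0999 to 0.127 of the level of Igf2r in DOX E2 libraries and 0.161 to 0.204 in PBS E2 libraries, a ratio given as a description.

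**Figure D3:**
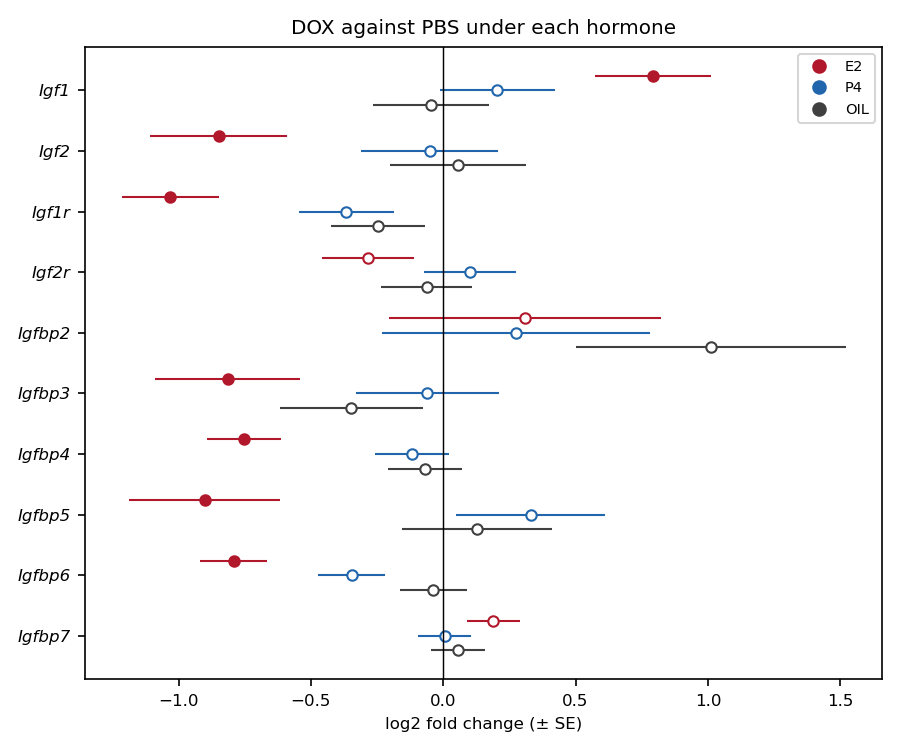
Log2 fold change of DOX minus PBS for each member under E2, P4 and OIL, with bars of ± 1 SE; filled points passed the test at an adjusted p of 0.05. Filled points appear under E2 only, with Igf1 at 0.79 and Igf1r at -1.03, and the points under P4 and OIL are all open.

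Igfbp4 and Igfbp6 were the binding proteins whose E2 response was called different between the arms. Igfbp4, which is cleaved by the protease PAPPA and holds back IGF action, was measured at 338, 309 and 334 CPM in DOX E2 uteri, against 421, 678 and 554 CPM in PBS E2 uteri. With P4 it was 886, 983 and 1058 CPM in DOX uteri, against 1000.2, 998 and 1177 CPM in PBS uteri. With OIL it was 542, 463 and 497 CPM in DOX uteri, against 476, 529 and 570.1 CPM in PBS uteri. The 3 DOX E2 libraries were below all others and the 6 P4 libraries above all others. DOX E2 minus PBS E2 was -0.75 ± 0.14 (adjusted p = 0.000687). E2 gave -0.61 ± 0.14 in the DOX arm (adjusted p = 0.000913) and 0.07 ± 0.14 in the PBS arm (adjusted p = 0.676). The E2 response of Igfbp4 was thus called in the DOX arm only, and the difference between the arms was tested directly. The interaction was -0.69 ± 0.20 (adjusted p = 0.0214), and its call ended without DOX E2 replicate 2 (-0.65) or PBS E2 replicate 2 (-0.51). P4 raised Igfbp4 by 0.96 ± 0.14 in the DOX arm (1.95-fold, adjusted p = 0.000233) and by 1.01 ± 0.14 in the PBS arm (2.02-fold, adjusted p = 0.000156).

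Igfbp6, which binds IGF2 in preference to IGF1, was measured at 186, 149.7 and 205 CPM in DOX E2 uteri, against 298, 326 and 312 CPM in PBS E2 uteri. With P4 it was 365, 482 and 483 CPM in DOX uteri, against 628, 533 and 529 CPM in PBS uteri. With OIL it was 362, 373 and 436 CPM in DOX uteri, against 417, 377 and 408 CPM in PBS uteri. The DOX E2 libraries were again below all others, and the PBS E2 libraries lay below every P4 and OIL library. DOX E2 minus PBS E2 was -0.79 ± 0.13 (adjusted p = 0.000251), the smallest p of the members in that comparison. E2 gave -1.12 ± 0.13 in the DOX arm (adjusted p = 1.11e-06) and -0.36 ± 0.13 in the PBS arm (adjusted p = 0.022). The PBS arm call ended without PBS E2 replicate 1 (-0.33), PBS E2 replicate 3 (-0.36), PBS OIL replicate 1 (-0.33) or PBS OIL replicate 3 (-0.35). Igfbp6 fell with E2 in both arms, and further in the DOX arm. The interaction of -0.75 ± 0.18 (adjusted p = 0.00877) passed in every alternative run, and leaving out 1 library gave -0.87 to -0.64. P4 raised Igfbp6 in the PBS arm by 0.49 ± 0.13 (adjusted p = 0.00916), and in the DOX arm the value was 0.18 ± 0.13 (adjusted p = 0.295). That difference was tested as an interaction and did not pass (-0.31 ± 0.18, adjusted p = 1).

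Igfbp5, a binding protein that attaches to extracellular matrix, was the member with the largest rise under P4 in either arm. It was measured at 1322, 2090.1 and 1249.7 CPM in DOX P4 uteri, against 321, 428 and 492 CPM in DOX OIL uteri. PBS P4 uteri held 1158, 977 and 1576 CPM, against 222, 476 and 439 CPM in PBS OIL uteri. Every P4 library exceeded every OIL library, and the rise was 1.91 ± 0.29 in the DOX arm (3.76-fold, adjusted p = 0.000331) and 1.71 ± 0.29 in the PBS arm (3.26-fold, adjusted p = 0.000679). In E2 uteri it stood at 275, 279 and 176 CPM with DOX, against 430.4, 415 and 518 CPM with PBS. These groups did not overlap, and DOX E2 minus PBS E2 was -0.90 ± 0.29 (adjusted p = 0.0201). The call ended without DOX E2 replicate 3 (-0.73) or PBS E2 replicate 3 (-0.80), and with the adipocyte covariate (-0.95, adjusted p = 0.145). Set against OIL, the E2 value passed in the DOX arm and not in the PBS arm. E2 gave -0.77 ± 0.29 in the DOX arm (adjusted p = 0.0243) and 0.26 ± 0.28 in the PBS arm (adjusted p = 0.438). The DOX arm call ended without DOX E2 replicate 3 (-0.59), DOX OIL replicate 2 (-0.74) or DOX OIL replicate 3 (-0.62), and with the adipocyte covariate (-0.80). The interaction was -1.03 ± 0.40 (adjusted p = 0.0753), and it passed with the Wald test of DESeq2 (-1.03, adjusted p = 0.037) and without PBS OIL replicate 2 (-1.23).

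Igfbp3, the main carrier of IGFs in blood, was measured at 199.97, 165 and 299.998 CPM in DOX E2 uteri, against 328, 329.5 and 513 CPM in PBS E2 uteri. P4 uteri held 274, 246 and 257 CPM with DOX, against 354, 164 and 292 CPM with PBS. OIL uteri held 378, 446 and 371 CPM with DOX, against 442, 416 and 661 CPM with PBS. The DOX E2 libraries were below all PBS E2 and all OIL libraries but overlapped those of P4. DOX E2 minus PBS E2 was -0.82 ± 0.27 (adjusted p = 0.0261), and the call ended without DOX E2 replicate 1 (-0.77), DOX E2 replicate 2 (-0.64) or PBS E2 replicate 3 (-0.57), and with the adipocyte covariate (-0.35, adjusted p = 0.501). E2 gave -0.84 ± 0.27 in the DOX arm (adjusted p = 0.0112), a call that ended without DOX E2 replicate 2 (-0.67) and with the covariate (-0.54), and -0.38 ± 0.27 in the PBS arm (adjusted p = 0.241). With P4 the call was made in the PBS arm only, and the P4 interaction (0.29 ± 0.38, adjusted p = 1) did not pass. P4 gave -0.62 ± 0.27 in the DOX arm (adjusted p = 0.0976) and -0.91 ± 0.27 in the PBS arm (adjusted p = 0.02). The DOX arm value passed in a fit of the compared groups alone (-0.61, adjusted p = 0.00352). The PBS arm call ended without PBS OIL replicate 3 (-0.67) or PBS P4 replicate 2 (-0.65), with the covariate (-0.60) and in a fit of the compared groups alone (-0.91, adjusted p = 0.0671).

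Igfbp7, a secreted protein that binds IGFs with low affinity, rose with P4, and no other comparison of it passed. It was measured at 763, 734 and 773 CPM in DOX P4 uteri, against 438, 531 and 469 CPM in DOX OIL uteri, and at 763, 778 and 721 CPM in PBS P4 uteri, against 505, 465 and 413 CPM in PBS OIL uteri. No P4 library overlapped an OIL library, and the rise was 0.66 ± 0.10 in the DOX arm (1.58-fold, adjusted p = 0.000331) and 0.71 ± 0.10 in the PBS arm (1.63-fold, adjusted p = 0.000197). Under E2 it stood at 503, 472 and 523 CPM with DOX, against 488, 382 and 444 CPM with PBS. These libraries overlapped, and the difference of 0.19 ± 0.10 did not pass (adjusted p = 0.148), although it did without PBS E2 replicate 1 (0.27, adjusted p = 0.0477). Polr2b on the opposite strand shares 7.03% of the Igfbp7 exon bases, and no source used here states the strand setting of the counts. Igfbp2, a binding protein found in many fluids, was low in all groups, at 2.004 to 16.0 CPM, and passed in none of the 9 comparisons. Its highest value was a DOX OIL library, and DOX OIL minus PBS OIL was 1.01 ± 0.51 (adjusted p = 0.638).

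Without E2, DOX moved none of the members past the threshold. Under OIL the log2 fold changes ran between -0.35 for Igfbp3 and 1.01 for Igfbp2, 0 of 10 members were called in either direction, and 0.0129% of all tested genes were. At an unadjusted p under 0.05 there were 0 members, and the Wald test of DESeq2 called 0. Under P4 the values ran between -0.37 for Igf1r and 0.33 for Igfbp5, with 0 of 10 members and 0% of all tested genes called. There 1 member, Igfbp6, had an unadjusted p under 0.05, at -0.35 ± 0.13 with an adjusted p of 0.892 and no overlap between the DOX P4 and PBS P4 libraries, and the Wald test of DESeq2 called 0. The difference of the P4 response between the arms was called for 0 members and for 0.00645% of all tested genes, with 0 members at an unadjusted p under 0.05 and 0 by the Wald test of DESeq2.

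The difference of the E2 response between the arms was called for 3 members, all more negative in the DOX arm: Igf1r, Igfbp4 and Igfbp6. The background was 10.1% of all tested genes higher, where 0 members stood, and 12.8% lower, where the 3 stood. Of the members not given an interaction above, Igfbp2 had -0.70 ± 0.72 (adjusted p = 0.507), Igfbp3 -0.47 ± 0.38 (adjusted p = 0.397) and Igfbp7 0.13 ± 0.14 (adjusted p = 0.524). The median interaction of the 10 members was -0.69, against 0.01 over all tested genes. Fits without 1 library each called 1 to 4 members, with 1 (Igfbp6) without DOX E2 replicate 2, and the Wald test of DESeq2 called 5.

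Summed per kilobase, the binding proteins stood in lowest excess over the ligands in DOX E2 uteri. The 6 binding proteins together gave 696 to 820.1 CPM per kilobase in DOX E2 libraries, against 940.0 to 1025 in PBS E2 libraries. The ligands together gave 91.2 to 109 in DOX E2 libraries, against 44.9 to 71.4 in PBS E2 libraries. The binding protein sums were lower and the ligand sums higher in DOX E2 libraries, without overlap. The ratio of binding proteins to ligands had a median of 7.33 (7.13 to 8.99) in DOX E2 libraries, against 14.5 (13.3 to 20.9) in PBS E2 libraries, and these ranges did not overlap. The ratio was 53.5 (43.6 to 72.8) in DOX P4 libraries, against 66.4 (59.2 to 67.3) in PBS P4 libraries, and 85.0 (78.0 to 96.3) in DOX OIL libraries, against 90.3 (74.0 to 105) in PBS OIL libraries. Igf1 held most of the ligand level in every group, and a larger share under either hormone than with OIL. Igf1 made up 93.4 to 97.3% of the ligand level in DOX E2 libraries, against 84.5 to 88.8% in PBS E2 libraries. Its share was 80.2 to 90.7% in DOX P4 libraries and 80.6 to 86.9% in PBS P4 libraries. With OIL it was 55.1 to 60.6% in DOX libraries and 52.9 to 66.3% in PBS libraries. The share of Igfbp5 among the binding proteins was 12.9 to 20.6% in DOX P4 libraries and 10.4 to 15.5% in PBS P4 libraries, against 5.41 to 7.47% in DOX OIL libraries and 3.41 to 7.48% in PBS OIL libraries. These sums are of RNA, carry no test, and give each binding protein the same weight.

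**Figure D4:**
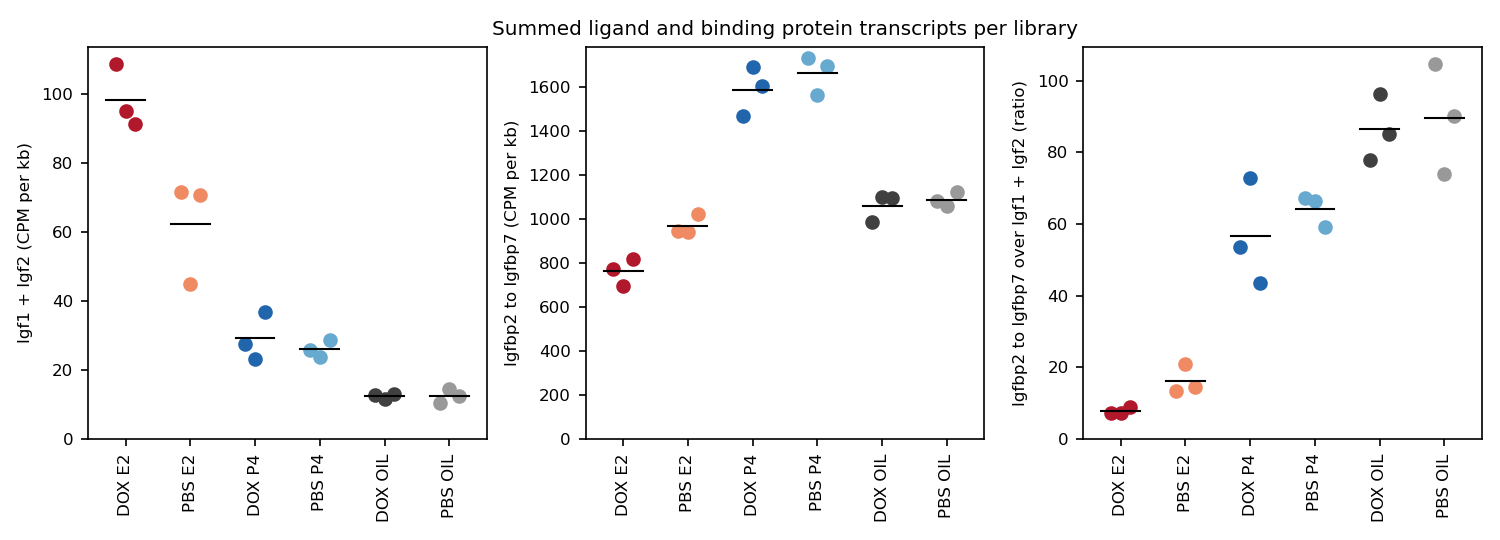
Summed level of the ligands, summed level of the binding proteins (both CPM per kilobase) and their ratio in each library by group, with a black line at the group mean. The DOX E2 points of the ratio lie between 7.13 and 8.99, all below the PBS E2 points, and the OIL points lie between 74.0 and 105.

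The genes around the IGF system were read from 3 lists. Of 9 tested genes that set IGF availability, 2 rose and 5 fell in DOX E2 relative to PBS E2 uteri, with a median log2 fold change of -0.91. Over all tested genes 20.4% were higher and 20.6% lower in this comparison, the background for each of the 3 lists. Pappa, the protease that frees IGF from IGFBP4, stood at 10.7 ± 2.99 CPM in DOX E2 uteri, against 33.2 ± 14.4 CPM in PBS E2 uteri (-1.62 ± 0.32, adjusted p = 0.00111). Stc2, an inhibitor of PAPPA, fell by 0.91 ± 0.18 on the log2 scale (adjusted p = 0.00119), and this call ended with the adipocyte covariate (-0.52). Kazald1, an IGFBP-related protein, stood at 0.340 ± 0.1004 CPM in DOX E2 uteri, against 1.55 ± 0.255 CPM in PBS E2 uteri (-2.14 ± 0.34, adjusted p = 0.000208). Pappa and its inhibitor Stc2 were thus both lower in DOX E2 uteri. Igfals, the acid-labile subunit of the circulating IGF complex, stood at 0.120 ± 0.0783 CPM in DOX E2 uteri, against 1.96 ± 2.07 CPM in PBS E2 uteri (-3.96 ± 1.03, adjusted p = 0.00689), and its call ended without PBS E2 replicate 1 (-2.61) and with the covariate (-0.35). Under E2 in the PBS arm, with a background of 29.6% higher and 31.9% lower, 1 gene of this list rose, Htra1, a secreted protease that cleaves IGFBPs (1.22 ± 0.11, adjusted p = 2.39e-07), and 4 fell, among them Stc1, the paralog of Stc2 (-1.12 ± 0.20, adjusted p = 0.000189), Kazald1 (-1.49 ± 0.28, adjusted p = 0.000275) and Tmem219, a receptor of IGFBP3 (-0.48 ± 0.11, adjusted p = 0.00101). The E2 response differed between the arms for 4 of the 9 (background 10.1% higher and 12.8% lower), higher in the DOX arm for Htra1 (0.60 ± 0.16) and lower for Kazald1 (-2.14 ± 0.43), Stc1 (-1.24 ± 0.29) and Pappa (-1.63 ± 0.44), with adjusted p of 0.00346 to 0.0161.

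Of 5 tested genes of IGF production and RNA binding, 2 rose and 1 fell in DOX E2 relative to PBS E2 uteri (background 20.4% and 20.6%), with a median of 0.28. In a list of 5 genes these counts are no result about the list. Stat5a, one of the STAT5 factors that transmit growth hormone signals, stood at 93.3 ± 21.2 CPM in DOX E2 uteri, against 53.4 ± 13.0 CPM in PBS E2 uteri (0.80 ± 0.18, adjusted p = 0.00217). Socs2, a brake on that signal, rose by 0.66 ± 0.19 (adjusted p = 0.0127), a call that ended without DOX E2 replicate 1 (0.57) or PBS E2 replicate 2 (0.46) and in a fit of the compared groups alone (0.63). Ghr, the growth hormone receptor, gave -0.76 ± 0.22 (adjusted p = 0.0115), and its call ended in 4 alternatives, among them the adipocyte covariate (-0.04) and the fit without PBS E2 replicate 1 (-0.47). Under E2 in the PBS arm 3 rose and 0 fell (background 29.6% and 31.9%): Socs2 by 2.25 ± 0.20 (adjusted p = 1.84e-07), Stat5a by 1.12 ± 0.18 (adjusted p = 5.98e-05) and Igf2bp2, an RNA-binding protein of Igf2 mRNA, by 0.42 ± 0.15 (adjusted p = 0.0257). The Igf2bp2 call ended without PBS E2 replicate 1 (0.30), PBS OIL replicate 2 (0.36) or PBS OIL replicate 3 (0.40). The interaction was called for 1 gene, higher in the DOX arm (background 10.1%), Stat5a, at 0.94 ± 0.25 (adjusted p = 0.0156), and without DOX E2 replicate 1 it was 0.79 with an adjusted p of 0.0501.

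Of 20 genes of IGF receptor signalling, 3 rose and 5 fell in DOX E2 relative to PBS E2 uteri, with a median of -0.08. These counts lie near the background of 20.4% higher and 20.6% lower and are no result about the list. Irs2, an adaptor that couples IGF1R and the insulin receptor to PI3K, stood at 3.32 ± 0.832 CPM in DOX E2 uteri, against 11.7 ± 1.19 CPM in PBS E2 uteri (-1.80 ± 0.20, adjusted p = 1.11e-05). Pik3r2, a regulatory subunit of PI3K, gave -1.23 ± 0.17 (adjusted p = 5.7e-05), and Grb14, an adaptor that inhibits the receptors, -0.96 ± 0.18 (adjusted p = 0.00073). Under E2 in the PBS arm 8 rose and 6 fell, also near the background of 29.6% and 31.9%. The kinase gene Akt1 and the transcription factor gene Foxo3 moved in opposite directions. There Akt1 rose by 1.07 ± 0.09 (adjusted p = 1.34e-07), and Foxo3, a transcription factor that AKT holds out of the nucleus, gave -1.42 ± 0.12 (adjusted p = 1.27e-07). Irs2 gave -1.78 ± 0.18 (adjusted p = 6.32e-07) and Grb14 gave -1.81 ± 0.17 (adjusted p = 2.47e-07) in the same comparison. The interaction was called for 6 of the 20, 1 higher and 5 lower (background 10.1% and 12.8%), and among the lower were Irs2 (-1.62 ± 0.26), Pik3r2 (-1.13 ± 0.23) and Pik3ca, a catalytic subunit of PI3K (-0.59 ± 0.13), with adjusted p of 0.000905 to 0.00585. Over the 3 lists, 0 genes were called for DOX under OIL, for DOX under P4 or for the P4 interaction.

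**Figure D5:**
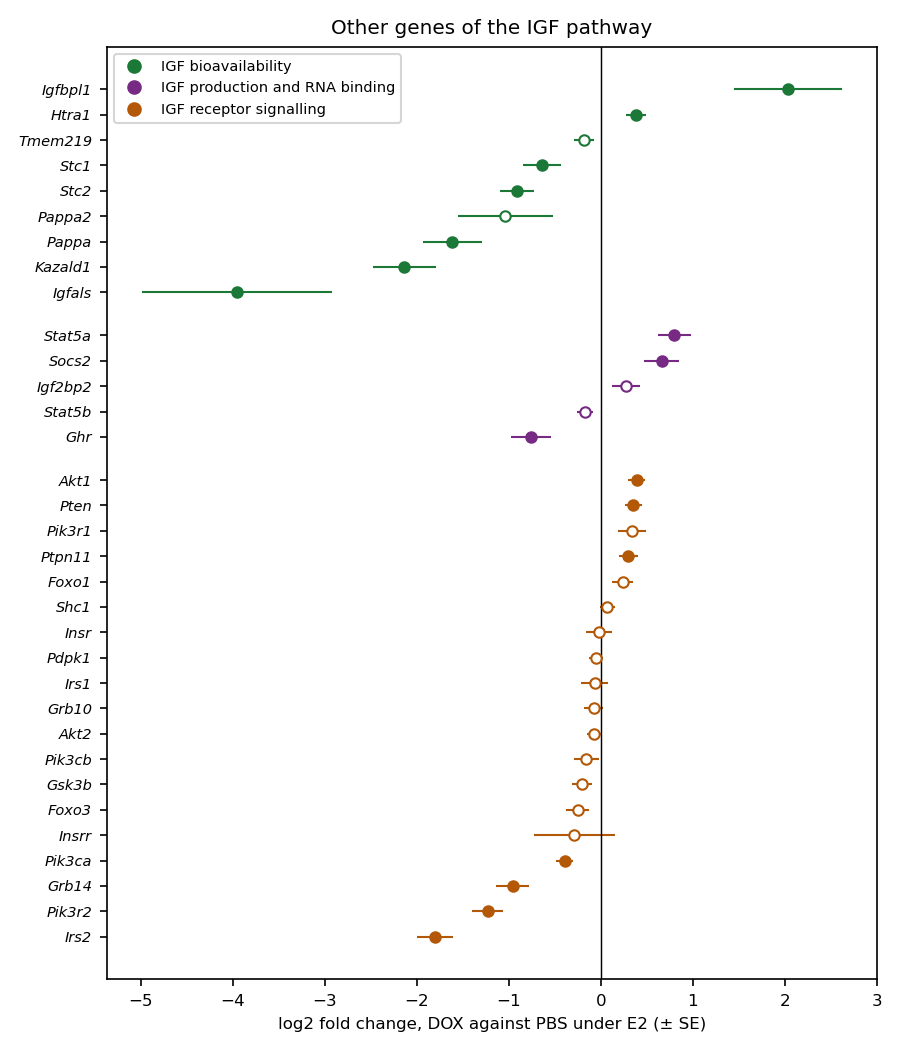
Log2 fold change of DOX minus PBS under E2 for genes of the 3 lists around the IGF system, coloured by list, with bars of ± 1 SE and filled points for an adjusted p under 0.05. Igfals stands lowest at -3.96 with the widest bar, Irs2 at -1.80 and Stat5a at 0.80.

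The genes with a profile most like that of Igf1 over the 18 libraries were Spon1, Cycs, Slc25a5, Hsph1 and Fst. Clone-like and predicted gene names and genes of the mitochondrial genome were left out of this ranking. The root mean square difference of their centred log2 CPM from that of Igf1 was 0.324, 0.338, 0.355, 0.356 and 0.362. Spon1 encodes an extracellular matrix protein, Cycs cytochrome c, Slc25a5 a mitochondrial ADP/ATP carrier, Hsph1 a heat shock protein and Fst follistatin, which binds activin. Among the members, Igfbp4 was nearest to Igfbp6 (0.329) and then to Igfbp7 (0.424).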

How the data were processed

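Total RNA of whole uterus was sequenced in 18 libraries prepared, per the labels, with a TruSeq total RNA kit. The authors deposited 1 table of raw counts per gene symbol. The submitters' processing notes name the build GRCm38 and, in no stated role, HISAT2 2.1.0, StringTie 1.3.4d, Trimmomatic 0.36, SAMtools 1.6, FastQC 0.11.5, R 3.4.4 and DESeq2 1.18.1. No source used here names the counter, the annotation or the strand setting. No libraries of a group were copies of each other, since chi-square over its degrees of freedom was 15.7 to 69.4 for each pair.

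Genes were filtered with filterByExpr of edgeR 4.0.16, which left 15494, and scaled by TMM. A robust quasi-likelihood fit of the 6 groups had 12 residual degrees of freedom. Each of the 9 comparisons was a contrast with Benjamini-Hochberg adjustment over all tested genes and a threshold of 0.05. The SE is the size of the log2 fold change divided by the square root of F. The fit was tested on simulated data. The CPM values are counts scaled by TMM library sizes, and log2 CPM for profiles used a prior count of 2. Lengths and positions come from GENCODE M21, and promoter windows from RefSeq, in which all 10 members matched by symbol. Protein sequences were not analysed here.

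Alternatives were DESeq2 size factors, the Wald test of DESeq2 1.42.0, no filter, at least 1 CPM in 3 libraries, a replicate block, only the groups compared, the mean log2 CPM of 21 adipocyte markers as a covariate, longest transcripts as lengths, and leaving out each library in turn.

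The members, lists and tests were chosen with earlier results of these data known. The rule names all 10 members in every comparison; values that did not pass are in part given as a range. Of the other lists, called genes with the 4 smallest p were named for DOX minus PBS under E2, E2 minus OIL in PBS and the E2 interaction, as were the 5 genes nearest to Igf1. Of these lists, Igfbp1 (7 counts in all in DOX E2, 1 in PBS E2 and 0 in the other groups), Igf2bp1 and Igf2bp3 were too low to test, and H19 was not analysed here. A gene of the signalling list is not reported here, though the counts include it. Marker lists for luminal and glandular epithelium, endothelium, macrophage and oviduct were also read. Their summed levels in DOX E2 and PBS E2 libraries were 1438 to 2017 against 1137 to 1690.1 CPM, 1631 to 2069 against 1213 to 2038 CPM, 446 to 785 against 595 to 630.0 CPM, and 11.9 to 13.6 against 13.7 to 24.7 CPM.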

Additional observations from a re-analysis of the deposited data

Results flagged for a closer look

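For 3 members the response to E2 differed between the DOX arm and the PBS arm by the test of the difference itself. The difference was -0.79 on the log2 scale for Igf1r, where E2 gave -1.59 in the DOX arm and -0.80 in the PBS arm. It was -0.69 for Igfbp4, where E2 gave -0.61 in the DOX arm and 0.07 in the PBS arm. It was -0.75 for Igfbp6, where E2 gave -1.12 in the DOX arm and -0.36 in the PBS arm. The 3 calls were not equally stable. The Igf1r call was lost in most fits without 1 library. The Igfbp4 call ended without DOX E2 replicate 2 or PBS E2 replicate 2, and the Igfbp6 call passed in every alternative run. With 3 libraries in each group, single libraries were not tested for standing apart.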

How the results depend on the processing

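The number of members called for DOX under E2 was 7, and 3 with the adipocyte covariate, and leaving out 1 library gave 4 to 8. The lowest was without PBS E2 replicate 3. For E2 in the PBS arm it was 5, and leaving out 1 library gave 3 to 5, with 3 without PBS E2 replicate 1, PBS E2 replicate 3 or PBS OIL replicate 1. For E2 in the DOX arm the range was 6 to 7, for P4 in the PBS arm 6 to 8 and for P4 in the DOX arm 4 to 6. For the E2 interaction it was 3, and 5 with the Wald test of DESeq2, and leaving out 1 library gave 1 to 4. With the longest transcript as length, the PBS OIL levels were 10.3 CPM per kilobase for Igf1, 6.13 for Igf2, 6.27 for Igf1r, 209 for Igfbp3 and 137 for Igfbp4. The values that changed sign all belonged to members not called in that comparison. Leaving out 1 library gave -0.22 to 0.19 for Igf1 in DOX under OIL, -0.051 to 0.39 for Igf1 in DOX under P4, and -0.20 to 0.61 for Igfbp2 in DOX under E2. For E2 in the PBS arm it gave -0.44 to 0.46 for Igfbp2, -0.11 to 0.23 for Igfbp4, -0.01 to 0.46 for Igfbp5 and -0.16 to 0.015 for Igfbp7. For E2 in the DOX arm it gave -0.47 to 0.019 for Igf2 and -0.002 to 0.14 for Igfbp7, and for P4 in the PBS arm -0.30 to 0.61 for Igfbp2. It gave -0.44 to 0.007 for Igf2r in the E2 interaction and -0.005 to 0.44 for Igf1 in the P4 interaction. The adipocyte covariate gave 0.14 for Igf2 under E2 in the DOX arm, and 0.085 for Igf2 and -0.06 for Igfbp2 under P4 in the PBS arm. The cause of these shifts was not tested.

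Over all tested genes, DOX under OIL called 2, and 21 with the Wald test of DESeq2, 0 with the replicate block and 0 with the covariate. At an unadjusted p under 0.05 it called 1253. DOX under P4 called 0, with 822 at an unadjusted p under 0.05, and 10 with the Wald test. DOX under E2 called 6358, and 4043 with the covariate, and leaving out 1 library gave 4692 to 6818. The E2 interaction called 3553, and 4118 with the Wald test, and leaving out 1 library gave 2444 to 4897. P4 called 4930 in the PBS arm, with 3149 without PBS P4 replicate 3, and 4618 in the DOX arm, with 3057 without DOX P4 replicate 3. The P4 interaction called 1, with 525 at an unadjusted p under 0.05, 2 with the Wald test and 0 with the covariate, the stricter filter, only the groups compared or the block.

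The replicate numbers were not treated as pairs in the main fit. The correlation of same-numbered libraries within a comparison ran from -0.28 to 0.37, and in no comparison did every pair exceed 0.1. Under OIL, 6 of 6 libraries correlated best with their own number, a hint from the data and not the design. The replicate block changed no member call, and it gave 0.012 for Igfbp2 under E2 in the PBS arm. The SE of Igfbp2, the member with the lowest counts, was 0.51 in DOX under E2, against 0.10 for Igfbp7.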
